A study of Drosophila melanogaster with 16 samples.

Results

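Testes of Os+bgcn flies were set against testes of bgcn flies, in Drosophila melanogaster, with 6 Os+bgcn arrays and 5 bgcn arrays of the 16 in the series. The members were taken from the array titles, and the remaining 5 arrays, of wild-type testes, entered the fit for the estimate of spread and are given for reference. Both groups carry the bgcn mutation, and Os+bgcn testes carry in addition Os, named for outstretched, an older name of upd1. Not given in the sources used here are alleles, promoters, fly ages and the way Os was supplied. Each array held RNA of whole adult testes, and the labels call the replicates biological. A bgcn sample was made from 750 testes and an Os+bgcn sample from 150, so the genotype and the number of testes cannot be told apart in any result below.

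In the testis tip, hub cells secrete the ligand Upd, which binds the receptor Domeless on neighbouring germline and cyst stem cells and activates the transcription factor Stat92E through the kinase Hopscotch. Daughters of germline stem cells normally divide a few times as spermatogonia and then become spermatocytes, a switch that needs bgcn together with its partner bam. Without bgcn the testis fills with small dividing germ cells, and added Upd enlarges the pools of stem cells and of early somatic cyst cells.

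The values are Affymetrix signal intensities, and every difference below is the mean of log2(signal + 18.8) in Os+bgcn minus that in bgcn, with its standard error. This scale understates the fold change of dim genes. The tissue labels were held against marker lists. Spermatocyte and spermatid markers summed to 1047 to 2030 on bgcn arrays and 1283 to 1744 on Os+bgcn arrays, against 171476 to 199098 in wild type, so both mutants held little late germ cell RNA. For wild type the protocol text names bgcn testes, and these markers go against that text. Early germ cell markers summed to between 4621 and 5830 in bgcn, between 9767 and 11965 in Os+bgcn, and between 273 and 495 in wild type. Correlations between arrays ran from 0.870 to 0.960 among the bgcn libraries, from 0.919 to 0.958 among the Os+bgcn libraries, and from 0.798 to 0.907 across them. Markers of accessory gland and ejaculatory duct, which are no part of the testis, summed to between 6050 and 30369 in bgcn and between 1033 and 5558 in Os+bgcn (9282 to 34341 in wild type), and 18 of 21 were lower in Os+bgcn and none higher. All calls were therefore also made in a fit with the median log2 value of these markers on each array as a covariate, called the accessory gland covariate below. The covariate differed between the groups, so a call lost in that fit need not mean a smaller difference.

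Of 8563 genes tested, 1021 were higher in Os+bgcn (11.9%) and 790 lower (9.23%) at a limma adjusted p of 0.05. Among them 247 were higher by at least 2-fold (2.88%) and 363 lower (4.24%). The median difference of all genes was 0.04. Signals of both groups did not overlap at 13.1% of the 10422 probe sets. Many genes below were named by a rule that required no overlap, so the lack of overlap in them is a description and no separate result. Counted over probe sets, 1212 were higher (11.6%) and 929 lower (8.91%), so 56.6% of calls were higher. When arrays were centred on ribosomal protein genes in place of the authors' scaling, the median of all probe sets moved from 0.03 to 0.56. Calls then split into 2283 higher and 221 lower, 91.2% higher. Directions below are relative to the authors' scaling, and a list whose median turned with ribosomal centring is marked. With the accessory gland covariate 316 probe sets were higher and 322 lower.

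The targeted gene upd1, on the X chromosome, gave signals of 3.8, 9.5, 15.3, 11.7 and 7.7 on the 5 bgcn arrays and 255 to 637 (median 363) on the 6 Os+bgcn arrays. In wild type it read 5.1 to 18.5 (median 9.4). The groups were far apart, and the difference was 3.83 ± 0.21, adjusted p = 3.5e-10. The bgcn signals lay under 42.9, the level that decided which probe sets were tested, so the fold is understated on this scale. The bgcn transcript itself did not separate the groups, with signals of 47.6 to 102 in bgcn against 42 to 130.1 in Os+bgcn, a difference of 0.23 ± 0.25, adjusted p = 0.57.

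Genes next to upd1 on the X chromosome were examined in order, 5 tested genes on each side. Hesr, a repressor of the Hairy and Enhancer of split class, gave 43.7, 35.3, 60.4, 55.8 and 46.2 in bgcn and 344 to 681 (median 555) in Os+bgcn, with no overlap (3.03 ± 0.19, adjusted p = 1.3e-09). Him, which restrains muscle differentiation in the embryo, gave 6.8 to 12.2 in bgcn against 12.5 to 69.7 in Os+bgcn (1.30 ± 0.23, adjusted p = 4.2e-04). On the far side Tsf1, a transferrin that binds iron, gave 198 to 428 against 444 to 1260.2 (1.32 ± 0.21, adjusted p = 1.9e-04). Of the remaining 7 genes none passed: their differences ran from -0.54 for kairos to 0.73 for CG6179, and the gene immediately beside upd1 on either side read -0.28 and -0.54. The 3 genes that rose were therefore not directly beside upd1: 1 tested gene or more lay between. The calls of Him and Tsf1 were lost with the accessory gland covariate (adjusted p = 0.071 and 0.06).

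**Figure D1:**
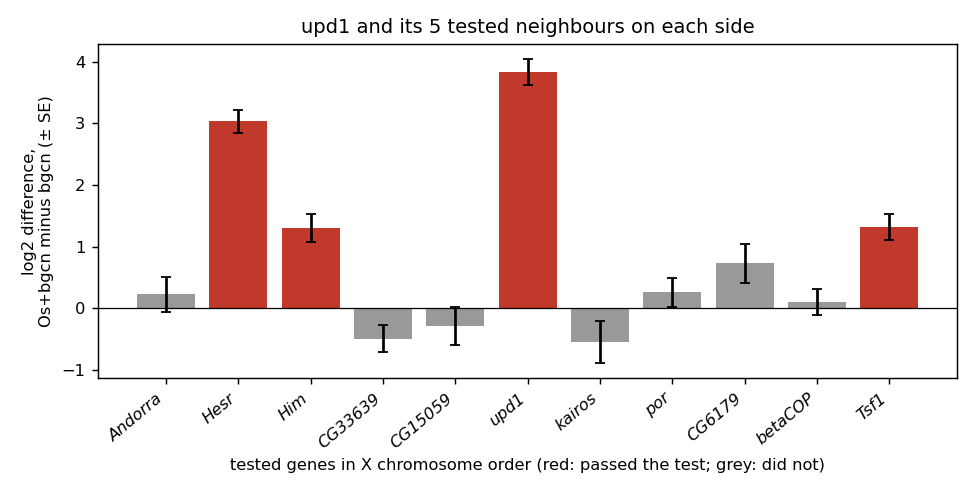
Differences of upd1 and its 5 tested neighbours on each side, in chromosome order; the vertical axis is the log2 difference, Os+bgcn minus bgcn, and bars are standard errors. upd1 stands at 3.83, Hesr at 3.03, Him at 1.30 and Tsf1 at 1.32, and the other 7 genes lie between -0.54 and 0.73.

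Of 11 tested genes of the JAK-STAT pathway, 10 were higher in Os+bgcn and none lower, with a median of 1.03. upd1, the gene the genotype adds, is 1 of those 10. The receptor gene dome gave 312, 212, 236, 205.3 and 208 in bgcn and 427 to 574 (median 492) in Os+bgcn. Each Os+bgcn array was above each bgcn array, and the difference was 1.03 ± 0.13, adjusted p = 1.2e-05; a further dome probe set did not pass, at 0.24. The target and self-renewal factor chinmo gave 92.2, 148, 82.9, 137 and 109.6 in bgcn against 229 to 387 (median 306) in Os+bgcn. Its groups also did not overlap (1.30 ± 0.17, adjusted p = 2.4e-05). zfh1, a zinc-finger repressor of cyst stem cells, gave 140.0 to 215 against 349 to 579.7 (1.09 ± 0.25, adjusted p = 0.0047). apt, which dampens STAT activity in egg chamber border cells, gave 181 to 262 against 509.5 to 728 (1.32 ± 0.16, adjusted p = 6.5e-06). Ptp61F, a phosphatase that limits the pathway, was higher by 1.04 ± 0.18, and the inhibitor Su(var)2-10 by 0.75 ± 0.21. For the transcription factor gene Stat92E the groups overlapped, at 375 to 1058 against 687 to 1122 (0.72 ± 0.22, adjusted p = 0.028). Its call rested on several libraries: leaving out bgcn 3, 4 or 5 or, in the other group, array 1 or 3 gave an adjusted p of 0.054 to 0.075, and a further probe set read 0.42 (adjusted p = 0.25). Genes of negative regulators rose as the receptor and targets did. With the accessory gland covariate 5 of the 11 passed, and the calls of zfh1 (adjusted p = 0.058), Ptp61F (0.11) and Su(var)2-10 (0.25) were lost. With no pseudocount zfh1 (0.065) and Su(var)2-10 (0.11) did not pass, nor Su(var)2-10 without bgcn arrays 1 and 2.

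Signals of the hub list summed to between 165 and 258 in bgcn and between 1467 and 1932 in Os+bgcn, a list of which 4 of 5 rose and 1 fell. upd1, the gene the genotype adds, is 1 of those 4 and enters the sum. esg, a zinc-finger factor of hub and stem cells, gave 13.5, 23.3, 29.2, 19.8 and 37.7 in bgcn and 719 to 990.3 (median 808) in Os+bgcn, a difference of 4.31 ± 0.16, adjusted p = 8.4e-13. The hub cadherin CadN gave 9.5, 6.8, 33, 34.5 and 57.8 against 206 to 249.8 (median 235) (2.54 ± 0.24, adjusted p = 2.8e-07). Both genes were dim in every bgcn library and bright in every Os+bgcn library. hh, a ligand that the hub sends to cyst stem cells, went the other way, at 35.9 to 81.9 against 25.8 to 45.1, with overlap (-0.63 ± 0.20, adjusted p = 0.03); it did not pass when bgcn array 1, 3 or 4 was left out, nor without arrays 2, 3 or 6 of the other group (adjusted p = 0.051 to 0.075). The call of hh was also lost with quantile normalization (0.052), without bgcn arrays 1 and 2 (0.12), with ribosomal centring (0.83) and with the covariate (0.41). In bulk RNA more cells of a type and more RNA per cell cannot be told apart, here and in all results below. Cyst lineage markers summed to between 3901 and 5146 in bgcn and between 6373 and 8725 in Os+bgcn, 6 of 10 higher and 1 lower. The 6 were Nrt, bnb, aop, tj, zfh1 and chinmo, the last 2 also counted in the JAK-STAT list. Most of the rise in the sum came from Nrt, bnb and aop. Their mean signals were 210, 194 and 224 in bgcn and 1300, 1469 and 690 in Os+bgcn. bnb, a marker of cyst cells, gave 203, 223, 242, 188 and 115 against 1108 to 2172 (median 1309.8) (2.80 ± 0.22, adjusted p = 2.7e-08). tj, a Maf factor of early cyst cells, gave 25.3, 12.4, 19.9, 13.8 and 25.7 against 27.4 to 288 (median 156) (2.08 ± 0.35, adjusted p = 2.7e-04), with 1 Os+bgcn array barely above the bgcn range. The later cyst factor eya was lower, at 170.5 to 279.6 in bgcn against 51.3 to 123 in Os+bgcn (-0.99 ± 0.20, adjusted p = 0.0012), a call lost with ribosomal centring (adjusted p = 0.32) and with the accessory gland covariate (0.31).

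**Figure D2:**
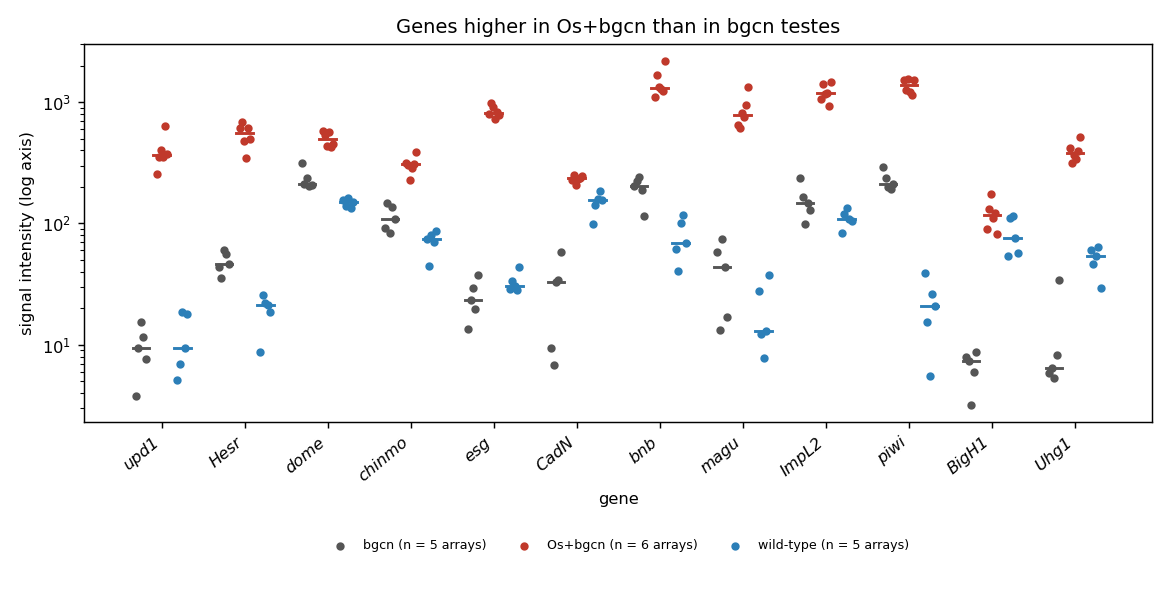
Signal per array (log axis) of 12 genes that were higher in Os+bgcn, with bgcn, Os+bgcn and wild-type arrays as separate points and a bar at each group median. For each gene every Os+bgcn point lies above every bgcn point.

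Notch pathway genes included 7 higher members of 18 tested and none lower, with a median of 0.12. They act in glycosylation of the receptor, its trafficking and the transcriptional response. fng, the glycosyltransferase that modifies Notch, gave 328, 239, 164, 158 and 187 in bgcn and 672 to 942 (median 806) in Os+bgcn (1.86 ± 0.22, adjusted p = 4.1e-06). The target repressor E(spl)m3-HLH gave 72.3, 73.4, 52.9, 48.6 and 52.3 against 195 to 384 (median 297) (1.99 ± 0.26, adjusted p = 1.6e-05). No bgcn array reached the Os+bgcn range for either gene. The fucosyltransferase gene O-fut1 rose by 1.10 ± 0.29, the ubiquitin ligase gene Nedd4 by 1.15 ± 0.20 and the coactivator gene mam by 0.76 ± 0.16, with a further mam probe set at 0.14 (adjusted p = 0.83). The accessory gland covariate left 3 of the 18, with a list median of 0.43. The calls of O-fut1 (adjusted p = 0.44), Nedd4 (0.20) and mam (0.14) ended there, and O-fut1 also did not pass without bgcn arrays 1 and 2 (0.10).

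Secreted signals and their receptors moved in both directions. magu, which encodes a secreted SMOC protein that affects BMP ligand spread, gave 58.6, 13.2, 74.9, 43.6 and 17.1 in bgcn and 614 to 1328 (median 781) in Os+bgcn (3.92 ± 0.28, adjusted p = 9.4e-09). ImpL2, whose product binds and blocks insulin-like peptides, gave 235, 166, 99.2, 148 and 130.1 against 926 to 1475 (median 1180.4) (2.84 ± 0.17, adjusted p = 1.2e-09). Every bgcn array was below every Os+bgcn array for both genes, a condition of the rule for the largest differences, which took them. Of 27 receptor tyrosine kinase, Ras and JNK genes, 8 rose and 1 fell. The EGF ligand gene spi gave 209 to 480.5 against 956 to 1237 (1.45 ± 0.17, adjusted p = 7.1e-06), its receptor gene Egfr rose by 1.14 ± 0.24, and aop, a repressor that Ras signalling inactivates, by 1.61 ± 0.20. Krn, a further EGF ligand, was lower (-0.81 ± 0.21, adjusted p = 0.0093). Wnt pathway genes gave 4 higher of 8 and none lower: the ligand gene Wnt6 read 36.3 to 68.7 against 102 to 125 (0.92 ± 0.19, adjusted p = 0.0017), and the Wnt-removing hydrolase gene Notum rose by 0.78 ± 0.18. Hedgehog genes gave 2 higher and 1 lower of 13, near the shares over all genes tested (11.9% higher, 9.23% lower). Among them the transcription factor gene ci rose by 1.46 ± 0.22 and the coreceptor gene ihog by 1.15 ± 0.22. BMP and TGF-beta genes gave 2 higher and 3 lower of 20, also near those shares, and their median turned to 0.44 with ribosomal centring. The ligand gene dpp was lower (-0.74 ± 0.21, adjusted p = 0.015), as was its feedback inhibitor Dad (-0.98 ± 0.21, adjusted p = 0.0025). In the fit with the accessory gland covariate the calls of Egfr (adjusted p = 0.077), Notum (0.29), Krn (0.40), dpp (0.50) and Dad (0.092) ended. Ribosomal centring ended those of Krn (0.55), dpp (0.66) and Dad (0.36); Krn (0.095) and dpp (0.11) also did not pass without bgcn arrays 1 and 2, nor Dad with no pseudocount (0.15).

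Further secreted and membrane proteins were higher in Os+bgcn. Lst, a peptide hormone that restrains insulin release, gave 9.3, 26.9, 17.9, 25.9 and 26 in bgcn and 121 to 248 (median 179) in Os+bgcn (2.29 ± 0.25, adjusted p = 1.8e-06). ETH, the ecdysis-triggering hormone gene, gave 12.1, 11.9, 9.5, 29.4 and 21.1 against 47.2 to 246 (median 72.3) (1.66 ± 0.31, adjusted p = 7.3e-04). pain, a cation channel of pain sensing, gave 82.4 to 176 against 567 to 795 (2.31 ± 0.17, adjusted p = 9.2e-09). In all 3 genes the groups did not overlap, and the call of ETH ended with the accessory gland covariate (adjusted p = 0.16). isoQC, a glutaminyl cyclase that modifies peptide ends, rose by 2.49 ± 0.23, and the ecto-nucleotidase NT5E-2 by 2.51 ± 0.26.

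Cell-surface adhesion genes gave 6 higher and 1 lower of 23 and axon guidance genes 4 higher and 1 lower of 22. Over all genes tested 11.9% were higher and 9.23% lower. The 2 lists are not separate: Nrt counts in both and among the cyst lineage markers. The adhesion count also includes the secreted ImpL2. Nrt, a transmembrane adhesion protein, gave 168, 199, 230.2, 262 and 192 in bgcn and 1109.5 to 1654 (median 1229) in Os+bgcn (2.53 ± 0.24, adjusted p = 4.7e-07), and its further probe set gave 1.10. side-V, of the Sidestep family of guidance proteins, gave 33.8 to 46.7 against 90.9 to 302 (2.08 ± 0.22, adjusted p = 1.4e-06). wrapper, a glial immunoglobulin protein, gave 7.3 to 34.1 against 69.3 to 172 (1.87 ± 0.29, adjusted p = 1.3e-04), and the netrin receptor gene unc-5 15.2 to 96.4 against 109.8 to 195 (1.41 ± 0.33, adjusted p = 0.0047). Os+bgcn arrays lay above the bgcn arrays in each of these genes. metro, a MAGUK scaffold protein, read 10.8 to 123 in bgcn against 222 to 623 in Os+bgcn (2.72 ± 0.41, adjusted p = 9.4e-05). Septate junction and polarity genes gave 2 higher and 5 lower of 27. The lower ones included Lac, Gli and kune, proteins of that junction, at -0.81 ± 0.14, -0.87 ± 0.25 and -0.66 ± 0.14; none of the 5 stayed lower with ribosomal centring. The calls of metro (adjusted p = 0.077), unc-5 (0.34), Gli (0.44) and kune (0.30) ended with the accessory gland covariate, and that of Gli without bgcn arrays 1 and 2 (0.095).

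Of 25 integrin and basement membrane genes 5 rose and 7 fell, and ribosomal centring turned the list's median to 0.46. The laminin chain gene LanA gave 214, 177, 197, 184 and 191 in bgcn and 365 to 589 (median 433) in Os+bgcn (1.16 ± 0.18, adjusted p = 9.4e-05). The perlecan gene trol gave 40.3 to 114 against 165 to 217 (1.14 ± 0.21, adjusted p = 6.3e-04). Timp, an inhibitor of matrix metalloproteases, gave 977, 924, 599.6, 722 and 783 against 144 to 285 (median 277) (-1.68 ± 0.23, adjusted p = 2.4e-05). The papilin gene Ppn gave 238 to 949 against 134 to 188 (-1.53 ± 0.31, adjusted p = 0.0016), and the collagen XV/XVIII gene Mp was lower (-1.25 ± 0.16, adjusted p = 1.7e-05). LanA and trol were higher, and Timp and Ppn lower, on every Os+bgcn array than on any bgcn array. Hemocytes also make matrix proteins: their 13 markers summed to between 6532 and 9566 in bgcn and between 5150 and 5745 in Os+bgcn, 9 lower and none higher, and their part in the lower matrix genes was not tested. The call of trol ended with the accessory gland covariate (adjusted p = 0.12), and that of Mp with ribosomal centring (0.14).

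Early germ cell genes gave 23 higher of 37 and none lower, a median of 0.64. piwi, the nuclear partner of piRNAs, gave 291, 237, 201, 191 and 210.3 in bgcn and 1143 to 1545 (median 1386) in Os+bgcn (2.50 ± 0.18, adjusted p = 9.4e-09). Its wild-type signals were 5.5 to 38.9. fs(1)Yb, a piRNA factor known from gonadal somatic cells, gave 9.2, 77.9, 102, 16.6 and 75.9 against 133 to 222 (median 181) (1.58 ± 0.31, adjusted p = 1.0e-03). The piRNA helicase genes spn-E and armi rose by 1.78 ± 0.14 and 1.35 ± 0.18, vret, of the Tudor class, by 1.58 ± 0.16, and the deubiquitinase gene otu, needed in young germ cells, by 1.73 ± 0.20. Translational regulators were among the rest, nanos at 1.13 ± 0.21, adjusted p = 8.5e-04 and mei-P26 at 1.02 ± 0.16, adjusted p = 1.0e-04. Of the 37, 11 passed with the accessory gland covariate, where the list's median was 0.77, and nanos no longer did (adjusted p = 0.15).

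Oogenesis and maternal effect genes gave 11 higher and 2 lower of 36. exu, which localises bicoid mRNA in eggs, gave 13.9, 12.9, 36.9, 29 and 12 in bgcn and 62.5 to 122 (median 94.7) in Os+bgcn (1.55 ± 0.20, adjusted p = 1.7e-05), both far under its wild-type signals of 1487 to 2924. dec, a defective chorion gene of eggshell, gave 8.3, 4.2, 4.6, 7.9 and 9 against 35.2 to 90.9 (median 72.5) (1.70 ± 0.21, adjusted p = 1.2e-05). The germline linker histone gene BigH1 gave 8, 7.3, 3.2, 6 and 8.8 against 81.9 to 175 (median 117) (2.40 ± 0.21, adjusted p = 1.3e-07). BigH1 and dec were dim on every bgcn array and brighter on every Os+bgcn array. eIF4E6, a cap-binding protein of the eIF4E family, gave 9.1 to 51.1 against 81.6 to 231 (1.62 ± 0.26, adjusted p = 1.5e-04). Among 44 RNA-binding and small RNA genes 10 rose and none fell: Imp, which in hub cells protects upd1 mRNA, gave 225, 247, 327, 368 and 236 against 478 to 1063 (median 713) (1.33 ± 0.18, adjusted p = 2.7e-05). The nucleolar list gave 13 higher of 44, led by Uhg1, the host gene of small nucleolar RNAs, at 5.9, 6.4, 5.3, 8.2 and 34 against 314 to 519 (median 383) (3.79 ± 0.22, adjusted p = 5.2e-10). The methyltransferase gene Fib rose by 0.75 ± 0.14. The accessory gland covariate left 3 higher genes in the oogenesis list, 2 in the RNA-binding list and 4 in the nucleolar list.

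Lists of nuclear functions held more higher than lower genes. Replication and mitosis genes gave 34 higher and 1 lower of 68, with a median of 0.55, DNA repair and checkpoint genes 15 higher of 39 (median 0.52), chromatin remodelling genes 17 higher of 35 (0.50) and Polycomb, trithorax and heterochromatin genes 13 higher and 1 lower of 36. The helicase subunit gene Mcm3 gave 175, 218, 380.0, 302 and 322 in bgcn and 548 to 638 (median 576) in Os+bgcn (1.06 ± 0.23, adjusted p = 0.0024). Klp61F, the mitotic kinesin that separates spindle poles, gave 396, 327, 322, 326 and 564 against 796 to 1131 (median 978) (1.32 ± 0.15, adjusted p = 2.8e-06). rad50, of the complex that processes broken DNA ends, gave 209 to 278 against 359.5 to 728 (1.05 ± 0.18, adjusted p = 3.2e-04). Groups did not overlap for these 3 genes. The Polycomb gene Psc gave 7.7 to 26.1 against 39.3 to 135 (1.55 ± 0.23, adjusted p = 7.9e-05), and the remodelling ATPase gene Iswi rose by 0.88 ± 0.14. The lower gene of the replication list, ana, encodes a glial glycoprotein that restrains neuroblast division; it gave 1128, 749.5, 1033, 1056 and 958 against 89.1 to 126 (median 105) (-2.99 ± 0.15, adjusted p = 6.7e-11). Nucleoporin genes gave 9 higher of 20 and none lower (median 0.42), among them Nup205 at 0.77 ± 0.16. Counts of higher genes with the accessory gland covariate were 14 for replication and mitosis, 5 for repair, 3 for remodelling and 0 for nucleoporins. Their medians in that fit were 0.56, 0.49, 0.35 and 0.44. The calls of Mcm3 (adjusted p = 0.14) and rad50 (0.072) ended in that fit, and Mcm3 did not pass with no pseudocount (0.056).

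**Figure D3:**
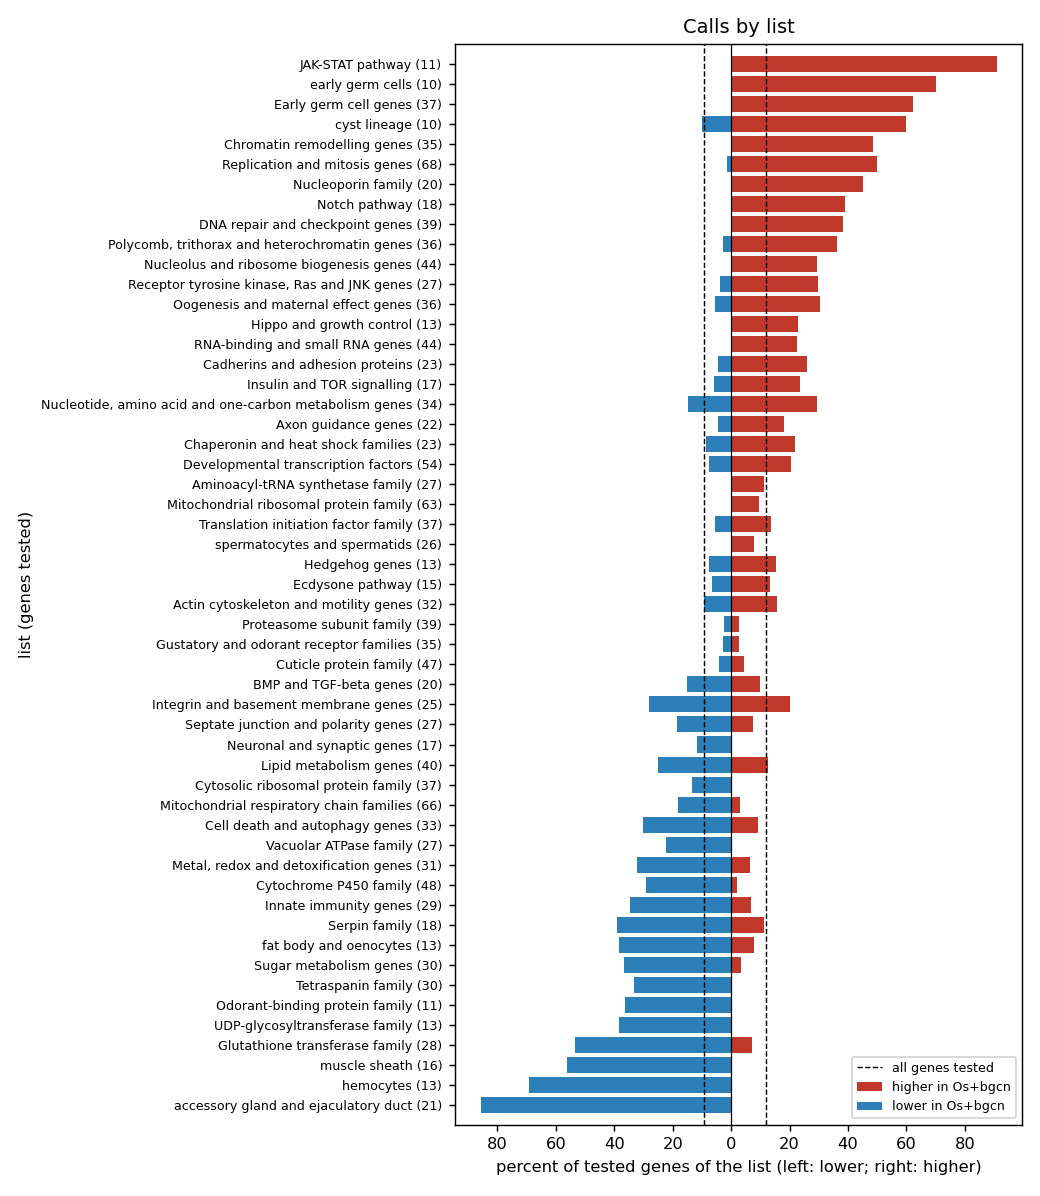
Share of tested genes that were higher (right) or lower (left) in Os+bgcn for lists with at least 10 tested genes, in percent. Left out are the Rab GTPase family (1 lower of 16) and the Jonah and trypsin protease families (2 higher and 3 lower of 19). The dashed lines mark all 8563 genes, 11.9% higher and 9.23% lower. JAK-STAT, early germ cell and replication lists extend to the right, and glutathione transferases and immunity genes to the left. Further left reach the markers of accessory gland and ejaculatory duct (18 lower of 21), hemocytes (9 of 13) and muscle sheath (9 of 16).

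Methyl donor metabolism gave the largest rises in a list of nucleotide, amino acid and one-carbon enzymes with 10 higher and 5 lower of 34. Sam-S, which makes the methyl donor S-adenosylmethionine, gave 6076, 5012, 3772, 3481 and 2412 in bgcn and 7333 to 11698 (median 9456) in Os+bgcn (1.23 ± 0.22, adjusted p = 4.4e-04). Cbs, which diverts homocysteine to cysteine, gave 95.7, 92.8, 171, 152 and 129 against 287 to 465 (median 348) (1.39 ± 0.17, adjusted p = 1.2e-05). Os+bgcn arrays were above bgcn arrays for both genes. Among the 5 lower genes the glutamine synthetase gene Gs1 read -0.71 ± 0.17 and the proline synthesis gene P5CS -1.05 ± 0.18. Neither passed with ribosomal centring (adjusted p = 0.69 and 0.25), where no gene of the list was lower, and Gs1 did not pass with the covariate (0.39).

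Of 31 metal and redox genes 10 fell and 2 rose, and the list's median turned to 0.24 with ribosomal centring. MtnA and MtnC encode metallothioneins, which bind copper and zinc. MtnA gave 32764, 33729, 18657, 18048 and 59202 in bgcn and 3105 to 8417 (median 7957) in Os+bgcn (-2.23 ± 0.33, adjusted p = 6.8e-05). MtnC gave 118, 71.1, 71.9, 126 and 131 against 2.9 to 6.4 (median 4.8) (-2.35 ± 0.20, adjusted p = 7.4e-08). The groups did not overlap for either gene, and MtnC was near background on all 6 Os+bgcn arrays. GILT3, a thiol reductase of the lysosomal type and the most lowered member of the list, gave 1009.9, 918, 947, 941 and 1335 against 118 to 168 (median 132) (-2.75 ± 0.12, adjusted p = 1.8e-11), and its neighbour GILT2 was lower (-2.05 ± 0.23, adjusted p = 3.4e-06). The glutathione synthesis gene Gclm was lower, at -1.55 ± 0.13; the copper importer gene Ctr1A was lower, at -0.81 ± 0.16, a call lost with ribosomal centring (adjusted p = 0.50). With the accessory gland covariate 5 of the 31 were lower, and the call of MtnA ended (adjusted p = 0.063).

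Detoxification families were lower in Os+bgcn by count, beside lower markers of other tissues. Of 28 glutathione transferase genes 15 fell and 2 rose, with a median of -0.67, still -0.14 with ribosomal centring. GstE7 gave 177, 159, 168, 206 and 98.6 in bgcn and 2.7 to 16.3 (median 8.6) in Os+bgcn (-2.68 ± 0.25, adjusted p = 2.5e-07). The bright GstD1 gave 8459, 9721, 8072, 8387 and 13062 against 1646 to 3454 (median 2728) (-1.85 ± 0.19, adjusted p = 9.0e-07). Each Os+bgcn array was below each bgcn array for both genes. GstD3, in the cluster of GstD1, was higher by 1.13 ± 0.22. Of 48 cytochrome P450 genes 14 fell and 1 rose, median -0.39, or 0.13 with ribosomal centring; Cyp4g1, an oenocyte enzyme of hydrocarbon synthesis, gave 715, 775, 607, 501 and 1354 against 14.5 to 178 (median 70.9) (-3.21 ± 0.54, adjusted p = 2.8e-04). Cyp6a2 and Cyp6d5 were lower, at -1.91 ± 0.24 and -1.94 ± 0.22. UDP-glycosyltransferases gave 5 lower of 13, a median that turned to 0.06 with ribosomal centring. Fat body and oenocyte markers summed to between 3098 and 5199 in bgcn and between 1775 and 2903 in Os+bgcn, 5 of 13 lower and 1 higher, and muscle markers to 5641 to 7643 and 3563 to 5305, 9 of 16 lower; their part in the lower families was not tested. In the covariate fit 11 glutathione transferases and 6 P450 genes were lower.

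**Figure D4:**
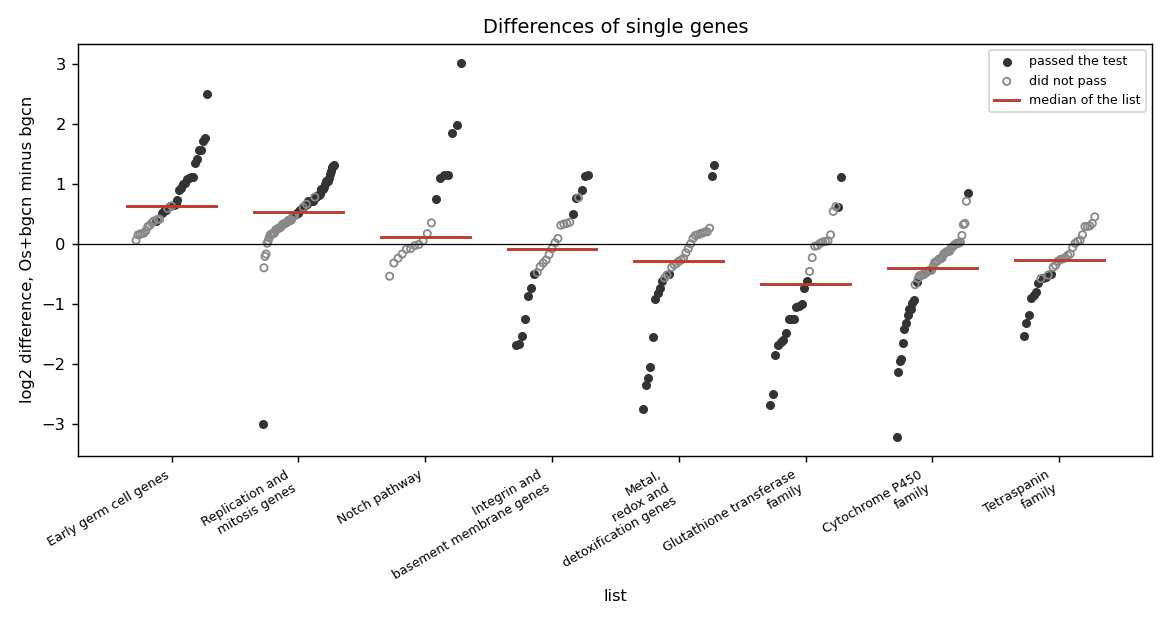
Differences of single genes in 8 lists, as log2 difference, Os+bgcn minus bgcn; filled points passed the test and open points did not, and the bar is the median of the list. Glutathione transferases lie mostly under 0 and early germ cell genes above it.

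Tetraspanins, small membrane proteins, gave 10 lower of 30 and none higher, of which 9 lie in the Tsp42E cluster on chromosome 2R; the median turned to 0.26 with ribosomal centring. Tsp42Eg gave 233, 174, 187, 157 and 135 in bgcn and 19.2 to 69 (median 54.1) in Os+bgcn (-1.53 ± 0.23, adjusted p = 1.0e-04), a call lost with the accessory gland covariate (adjusted p = 0.080). Serpins, inhibitors of proteases, gave 7 lower and 2 higher of 18, and ribosomal centring turned their median to 0.16. Spn43Aa was lower at -2.80 ± 0.19 and Spn77Bb at -3.43 ± 0.87, adjusted p = 0.0082, the latter on bgcn signals of 280.1, 494, 219, 169 and 1546 and lost with the covariate (0.39). Odorant-binding proteins gave 4 lower of 11, with Obp93a at 96.8 to 151 in bgcn against 3.7 to 25.5 in Os+bgcn (-2.0 ± 0.22, adjusted p = 2.6e-06). In the covariate fit 4 tetraspanins, 2 serpins and 2 odorant-binding proteins were lower. Jhbp5, of the juvenile hormone-binding protein family, was among the brightest lower genes, at 12556, 13563, 10749, 11057 and 15372 against 1647 to 4216 (median 3271) (-2.06 ± 0.20, adjusted p = 5.5e-07).

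Sugar metabolism genes gave 11 lower and 1 higher of 30 and lipid metabolism genes 10 lower and 5 higher of 40, with medians that turned to 0.22 and 0.25 with ribosomal centring. regucalcin, a calcium-binding protein with lactonase activity, gave 3009, 2819, 4627, 4788 and 3398 in bgcn and 267 to 624 (median 467) in Os+bgcn (-2.98 ± 0.19, adjusted p = 1.3e-09). The hexokinase gene Hex-A was lower, at -1.20 ± 0.18, a call lost with ribosomal centring (adjusted p = 0.13). Npc2a, a sterol carrier of lysosomes, gave 911 to 1596 against 271 to 571 (-1.35 ± 0.19, adjusted p = 3.8e-05). Jabba, the anchor of histones on lipid droplets, gave 538, 448, 453, 417 and 426 against 37.5 to 106 (median 71) (-2.42 ± 0.21, adjusted p = 1.3e-07). The groups of regucalcin, Npc2a and Jabba did not overlap. Vacuolar ATPase genes gave 6 lower of 27 and cell death and autophagy genes 10 lower and 3 higher of 33, and both medians turned with ribosomal centring, to 0.32 and 0.51. In the covariate fit 6 sugar, 3 lipid and 3 vacuolar ATPase genes and 1 cell death and autophagy gene were lower. With quantile normalization 4 cell death and autophagy genes were lower. Rab32, a GTPase of lysosome-related organelles, was lower (-1.61 ± 0.25, adjusted p = 1.1e-04), a call lost with the accessory gland covariate (adjusted p = 0.10).

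Innate immunity genes gave 10 lower and 2 higher of 29, and ribosomal centring turned their median to 0.21. In the covariate fit 6 were lower and 1 higher. Drs, the antifungal peptide drosomycin, was lower, at -1.91 ± 0.26, and is also counted among the fat body and oenocyte markers. Gbp2, a cytokine of the growth-blocking peptide family, gave 382 to 603 in bgcn against 103 to 223 in Os+bgcn (-1.54 ± 0.16, adjusted p = 1.6e-06). Hml, a clotting protein and hemocyte marker, gave 121, 128, 308, 317 and 242 against 30.2 to 62.2 (median 43.2) (-1.86 ± 0.25, adjusted p = 2.8e-05). A pair of enzymes among the largest lower differences acts on monoamines. t, the tan hydrolase that frees dopamine, gave 27.1, 73, 171, 172 and 184 against 7.9 to 12.6 (median 9.6) (-2.14 ± 0.31, adjusted p = 5.2e-05). speck, an enzyme that acetylates monoamines, gave 189, 162, 215, 253 and 213 against 17.9 to 59.8 (median 32.4) (-2.13 ± 0.24, adjusted p = 3.3e-06). No Os+bgcn array reached the bgcn range in Gbp2, Hml, t or speck.

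Developmental transcription factor genes gave 11 higher and 4 lower of 54, where 11.9% of all genes tested were higher and 9.23% lower. Lower members were thus no more frequent than among all genes. fru, of the BTB zinc-finger class, rose by 1.47 ± 0.29, against 0.25 (adjusted p = 0.62) on a further probe set, and the forkhead gene croc by 1.24 ± 0.19. Of the 4 lower members Lim1, a LIM homeobox gene, was lowest and gave 123, 124, 195, 164 and 95.8 in bgcn and 8.2 to 44 (median 23.9) in Os+bgcn (-1.91 ± 0.24, adjusted p = 1.4e-05), with 17.6 to 23.7 in wild type. A pair of homeobox genes outside that list was lower too. Six4, chosen after its values were seen, gave 88.2, 44.4, 61.8, 102 and 90.9 against 6 to 23.7 (median 8.1) (-1.70 ± 0.20, adjusted p = 4.6e-06), and Dr, held as a marker of pigment cells and terminal epithelium, read -1.32 ± 0.24, adjusted p = 4.9e-04, a call lost with ribosomal centring (adjusted p = 0.11). Six4 and Lim1 were near background on most Os+bgcn arrays.

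**Figure D5:**
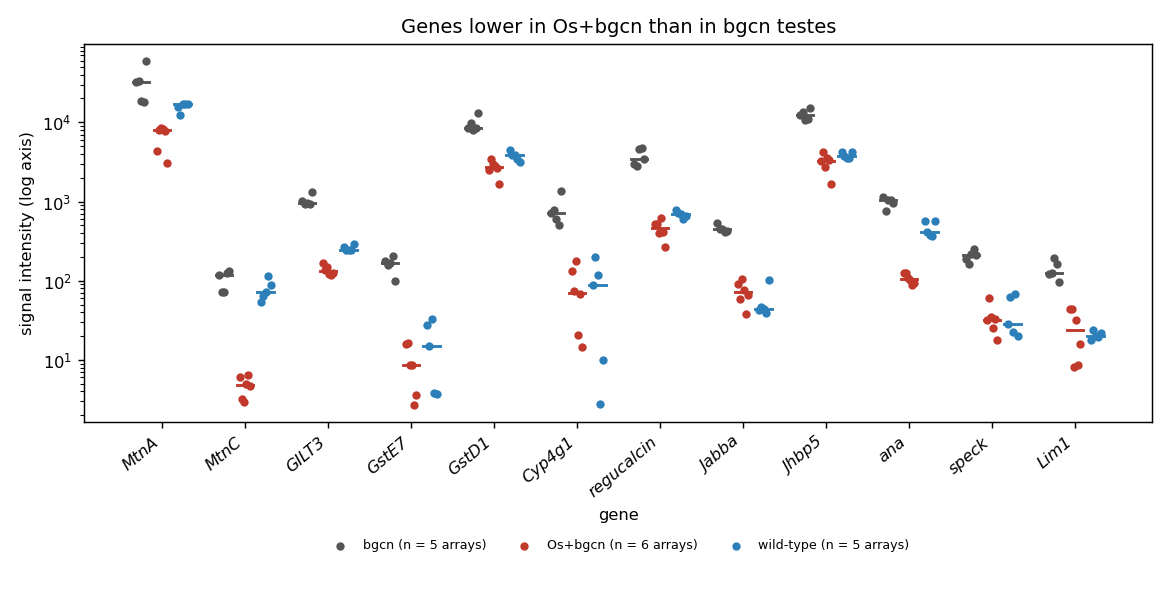
Signal per array (log axis) of 12 genes that were lower in Os+bgcn, with bgcn, Os+bgcn and wild-type arrays as separate points and a bar at each group median. For each gene every Os+bgcn point lies below every bgcn point.

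In 3 genes of digestive enzymes, chosen after their values were seen, some bgcn arrays stood apart. Jon65Aiv, a serine protease of the midgut, gave 37.5, 34.4, 41, 2568 and 577 in bgcn and 27.7 to 61.4 (median 39.9) in Os+bgcn, so that bgcn arrays 4 and 5 alone stood out, and it did not pass (-1.72 ± 0.73, adjusted p = 0.1). Jon65Aiii followed the same arrays, at 153, 123, 77.8, 2067 and 775 against 42.2 to 112 (-1.72 ± 0.59, adjusted p = 0.045), and without bgcn array 4 it read -1.05 (adjusted p = 0.12) and without array 5 it did not pass either (0.13). The amylase gene Amy-d was high on bgcn arrays 2 to 5, at 269.7, 1522, 3332, 4284 and 1983, against 98.5 to 292 in Os+bgcn (-3.22 ± 0.47, adjusted p = 6.6e-05). The part of such RNA in the other lower genes was not tested. Without bgcn arrays 4 and 5, an alternative added after seeing the data, 877 probe sets were higher and 708 lower, and 1465 of the calls were shared with the fit of all arrays.

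Wild-type signals place the differences between the mutants. Of the 247 genes at least 2-fold higher in Os+bgcn, the wild-type mean was nearer to Os+bgcn for 45 (18.2%) and below both mutants for 156 (63.2%), against 41.7% and 57.1% of all genes tested. Of the 363 at least 2-fold lower, it was nearer to Os+bgcn for 264 (72.7%). Idgf4, a chitinase-like growth factor of the imaginal disc growth factor family, gave 2379 to 2798 in bgcn, 268 to 1043 in Os+bgcn and 545 to 735 in wild type. These counts share the mutant arrays with the calls and are a description.

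Calls were spread over the chromosomes. The share of genes that were higher ran from 9.65% on the X to 13.3% on 2R, and the share lower from 5.0% on chromosome 4, with 40 genes, to 11.1% on 2R. A higher gene had a directly neighbouring higher gene in 27.3% of cases, where 22.2% of all genes have one, and a lower gene a lower neighbour in 28.9%, against 17.1%. The longest runs of adjacent lower genes held 6 genes each, GstE5 to GstE9 with imd, and Tsp42Eg to Tsp42El, both on 2R. A run of 5 lysozyme genes on 3L consists of near-identical copies whose probe sets may share transcripts, so their separate values are uncertain.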

How the data were processed

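RNA of whole testes was hybridised to Affymetrix DrosGenome1 arrays, per the labels. The deposited signal intensity is linear, 1 value per probe set. MAS5 is the tool that the submitters' processing notes name, without a version. In the deposited values all arrays have nearly the same trimmed mean, so a common scaling had been applied; no note used here describes it. Precision is limited by the number of arrays. The table holds 13966 probe sets; 12443 carry 1 gene symbol, 327 several and 1196 none, joined to RefSeq Release 6 names through the platform's gene identifiers. A gene is represented by its brightest probe set over all arrays.

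Values were transformed to log2(signal + 18.8), the pooled 25th percentile. A probe set was tested if 5 arrays or more exceeded 42.9, the 40th percentile of the pooled values, which left 10422. Among printed genes upd1, Him, tj, dec and Psc exceeded that level only on Os+bgcn arrays, and GstE7, Six4 and Dr only on bgcn arrays. Other printed genes exceeded it on fewer than 5 arrays outside their higher group. Without the Os+bgcn arrays these were esg, magu, Hesr, Uhg1, isoQC, Lst, ETH, wrapper, otu, fs(1)Yb, ci, ihog, fru, Wnt6 and Notum. Without the bgcn arrays they were Lim1, Cyp6a2, t, speck, Hml, Spn77Bb, Dad, dpp and Jon65Aiv. All genes of this paragraph entered the test only through the group where they are high. A mean for each genotype was estimated from the 16 arrays (limma 3.58.1, R 4.3.3, intensity trend), and p-values were adjusted by Benjamini-Hochberg over all tested probe sets at a threshold of 0.05. The p-values measure the spread between these samples. Replicate numbers were not taken to pair samples across groups in the main fit. The procedure was tested on simulated data. Figures used Python 3.11.15 and matplotlib 3.10.9.

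The gene lists, the members and the rule for naming were chosen with earlier results of these data known, and symbols of some members were matched by hand. The rule took upd1 and bgcn, the largest non-overlapping differences in each direction, the brightest genes with at least 2-fold differences, the largest passing members of each list, and the neighbours of upd1; which of these to print was decided after their values were seen. Outside the rule, and chosen after their values were seen, are Ctr1A, ETH, Gbp2, Gs1, GstD3, Idgf4, Jon65Aiv, Krn, Mcm3, Six4, Stat92E, Su(var)2-10, armi, croc, eya, mam and mei-P26. Alternatives covered normalization, pseudocount, filter, samples in the fit, trend, replicate block, left-out arrays and the accessory gland covariate.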

Additional observations from a re-analysis of the deposited data

Results flagged for a closer look

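Among 236 groups of arrays examined for the printed genes, 11 held an array that stood far from the rest of its group by Dixon's criterion; chance alone flags about 1 in 20 groups. In bgcn, array 5 was highest for GILT3 at 1334.8 and for Uhg1 at 34.0, array 1 was highest for Gli at 371 and lowest for spi at 209, and array 3 was highest for rad50 at 278. In Os+bgcn, array 3 was lowest for Him at 12.5 and array 1 lowest for side-V at 90.9. Array 6 was highest for Nup205 at 321 and lowest for eya at 51.3. Array 2 was highest for Spn77Bb at 168, where the other 5 arrays read 2.1 to 19.4, and for zfh1 at 579.7.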

How the results depend on the processing

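Against 1212 probe sets higher and 929 lower, ribosomal centring gave 2283 and 221 and the accessory gland covariate 316 and 322. Of the main calls 594 passed with the covariate too, and 99.2% of all main calls had the same direction there. Leaving out each array in turn gave 922 to 1182 higher and 778 to 913 lower. Of 113 printed genes past the threshold, 14 did not pass with ribosomal centring and 30 with the covariate. No printed call changed direction in any setting run. Among printed genes that did not pass, CG15059 turned to 0.25 with ribosomal centring and Jon65Aiv to 0.06 without bgcn arrays 4 and 5. Deviations of same-numbered arrays of both groups correlated at -0.11 to 0.20, which cannot show whether samples were processed in pairs. A fit with the replicate block gave 952 higher and 797 lower. Dim genes, such as upd1 in bgcn, limit how large a fold can be measured.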
